A study of Mus musculus with 194 samples.

Results

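The transcriptional response of the mouse amygdala (Amy) to acute and repeated cocaine was followed in 16 of the 194 libraries of the series. They are the libraries whose labels name the Amy and the acute or repeated experience (labelled Acute and Chronic), and each was made from the Amy of 1 mouse. Each experience held 2 mice at 0, 1, 2 and 4 hr. The 4 mice of a time point were therefore compared with the 4 mice at 0 hr with the experience as a covariate, and responses were then compared between the experiences.

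The series profiled 5 brain structures by 3′-RNA-seq, in which reads come from the 3′ end of each transcript, as mice developed behavioral sensitization to cocaine. All mice were C57BL/6OLAHSD males of 6 to 7 weeks on arrival, and mice given cocaine had 3 daily saline injections before any drug. The methods call the 0 hr mice untreated and do not say plainly whether those of acute cocaine had the saline injections. Acute mice received a single intraperitoneal injection of 20 mg/kg cocaine, and repeated mice received 5 daily injections of the same dose. The 0 hr mice were not injected on the day of collection and came directly from the home cage: those of acute cocaine had never had the drug, and those of repeated cocaine were taken 24 hr after the fourth of the daily doses. The libraries compared over time hold no mouse injected with saline on the day of collection, so the response to cocaine cannot be told apart from that to injection and handling. By the study's methods, 0 hr mice were interleaved with the injected mice of their experience. All 16 libraries were sequenced in the same run, but acute mice carry the cohort name exp20 and repeated mice exp17, so that experience and cohort cannot be told apart.

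Cocaine blocks the reuptake of dopamine, noradrenaline and serotonin. The Amy receives all of these transmitters and assigns emotional value to cues, including those that predict drug. Within an hour of strong stimulation, neurons transcribe immediate-early genes (IEGs), which need no new protein synthesis because the factors that switch them on, such as CREB and the serum response factor, are already present. Some IEGs encode transcription factors (the FOS, JUN, EGR and NR4A families), and others encode effectors that act at the synapse or on signaling.

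The 16 libraries held 2829509 to 5869650 counts each, and 12720 of 19363 genes were tested. Mice of a group differed beyond counting noise, with a chi-square per degree of freedom of 2.13 to 3.38 over the 8 pairs of mice. The first principal component took 15.4% of the variance of 500 genes, and acute mice (2.68 to 8.95) lay apart from repeated mice (-9.60 to 0.207) on it. Rspo2, a marker of basolateral Amy excitatory neurons, was at 14.7 to 27.6 CPM (counts scaled to the same total in each library) against 0.939 to 4.67 in the 16 lateral hypothalamus (LH) libraries of the same run. It was as high in the limbic cortex, at 14.6 to 33.1 CPM after acute and 19.0 to 33.8 CPM after repeated cocaine, so it does not set the Amy apart from cortex. Prkcd, a marker of Amy inhibitory neurons, was at 72.8 to 118 CPM and overlapped the LH (46.0 to 105 CPM). The neuropeptide genes Pmch and Hcrt, which define LH neurons, were also present in all 16 Amy libraries at 505 to 849 and 274 to 467 CPM, against 4323 to 8708 and 4176 to 7640 CPM in the LH. The summed markers of striatal projection neurons were at 1658 to 2403 CPM in acute and 1175 to 1834 CPM in repeated mice, and those of Amy excitatory neurons at 1354 to 1641 and 1798 to 2142 CPM. None of these markers was at 0 in all 16 libraries together. At 1 hr all 14 striatal markers had a positive log2FC (median 0.13), beside 50% of all genes. Their sum was 2343 to 2403 CPM against 1869 to 2207 at 0 hr in acute mice, where the groups did not overlap. In repeated mice it was 1235 to 1238 against 1175 to 1384 CPM. Of the 10 Amy excitatory markers 7 were positive (median 0.07). Their sum was 1435 to 1641 CPM at 1 hr against 1526 to 1567 at 0 hr in acute mice. In repeated mice it was 2102 to 2142 against 1798 to 1931 CPM, again without overlap. These are 2 against 2 mice, and the share of all genes that separate in this way was not counted. The part of the neighboring tissue in the results was not tested.

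One hour after cocaine, 14 genes rose in the Amy and none fell. Transcription factors of the IEG class were 6 of them (Fos, Junb, Egr1, Egr2, Egr4 and Nr4a1). With them rose the synaptic effector Arc, the regulators of growth, translation or signaling Gadd45b, Btg2, Tiparp, Arl4d, Ddit4 and Sgk1, and the clock gene Per1. A gene counted as changed when edgeR's quasi-likelihood test gave a Benjamini-Hochberg adjusted p under 0.05 over all genes tested and a fold change over 1.2. That was 0.110% of the genes tested at 1 hr, and 605 genes had an unadjusted p under 0.05. DESeq2 called 13 of these 14 genes, without Egr1. In 12 of the 14, every mouse at 1 hr was above every mouse at 0 hr, as in 1.28% of all genes tested, which is a description because these mice chose the 14 genes. The log2 fold changes (log2FC) ran from 0.42 to 1.90 with a median of 0.94, against 0.00 over all genes.

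Junb (chr8:84974484-84978718, minus strand, GRCm38), a JUN partner of the AP-1 complex, had the smallest p-value. It was at 247 and 259 CPM in the acute and 223 and 213 CPM in the repeated mice at 1 hr, against 128 and 104 CPM in the acute and 95.4 and 109 CPM in the repeated mice at 0 hr, where CPM from here on are scaled by TMM over the genes tested. Every mouse at 1 hr was above every mouse at 0 hr, and acute and repeated mice lay close together (log2FC 1.11 ± 0.10 SE, n = 4 mice per time point, adjusted p = 4.08e-09). Fos (chr12:85473890-85477273, plus strand), the other partner in AP-1, was at 27.3 and 30.7 CPM in the acute and 25.1 and 16.6 CPM in the repeated mice at 1 hr and at 12.2 and 6.94 CPM in the acute and 4.66 and 6.50 CPM in the repeated mice at 0 hr. The groups were separate, with the second repeated mouse lowest at 1 hr (log2FC 1.71 ± 0.23, adjusted p = 2.61e-05). Fosb, the relative of Fos known to build up with repeated cocaine, was at 16.6 and 17.3 CPM in the acute and 22.7 and 18.2 CPM in the repeated mice at 1 hr and 11.4 and 11.2 CPM in the acute and 8.39 and 19.5 CPM in the repeated mice at 0 hr. One repeated mouse at 0 hr was above 3 of the 4 mice at 1 hr, and the gene did not pass the test (log2FC 0.57 ± 0.19, adjusted p = 0.652).

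Of the EGR zinc finger factors, Egr2 (chr10:67535475-67542188, plus strand) had the largest fold change of all called genes. It was at 14.7 and 11.0 CPM in the acute and 9.26 and 3.54 CPM in the repeated mice at 1 hr against 5.24 and 2.41 CPM in the acute and 0.932 and 1.55 CPM in the repeated mice at 0 hr, so that the lowest mouse at 1 hr, of the repeated experience, was below the highest at 0 hr (log2FC 1.90 ± 0.39, adjusted p = 0.0228). Egr4 was at 67.3 and 66.0 CPM in the acute and 48.4 and 39.5 CPM in the repeated mice at 1 hr and 39.3 and 27.2 CPM in the acute and 30.1 and 28.8 CPM in the repeated mice at 0 hr. Its groups touched without crossing, since the lowest mouse at 1 hr stood just above the highest at 0 hr (log2FC 0.82 ± 0.15, adjusted p = 0.00597). Egr1 was at 179 and 174 CPM in the acute and 170.2 and 106 CPM in the repeated mice at 1 hr and 136 and 109.5 CPM in the acute and 85.2 and 102 CPM in the repeated mice at 0 hr, and the second repeated mouse at 1 hr lay among the 0 hr mice (log2FC 0.54 ± 0.11, adjusted p = 0.0228). Nr4a1 (chr15:101254269-101274795, plus strand), an orphan nuclear receptor, was at 80.9 and 79.7 CPM in the acute and 70.2 and 56.1 CPM in the repeated mice at 1 hr and 45.1 and 42.2 CPM in the acute and 32.0 and 31.2 CPM in the repeated mice at 0 hr. All mice at 1 hr were above those at 0 hr (log2FC 0.93 ± 0.13, adjusted p = 6.57e-05).

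Arc (chr15:74669083-74672570, minus strand), which acts at synapses to remove AMPA-type glutamate receptors, was at 132 and 155 CPM in the acute and 158 and 125 CPM in the repeated mice at 1 hr against 60.3 and 55.2 CPM in the acute and 51.9 and 48.3 CPM in the repeated mice at 0 hr. The groups were far apart, and neither experience stood apart (log2FC 1.40 ± 0.17, adjusted p = 1.91e-06). Gadd45b, a stress-response gene linked to DNA demethylation in neurons, was at 33.0 and 36.7 CPM in the acute and 42.7 and 37.6 CPM in the repeated mice at 1 hr and 20.7 and 15.4 CPM in the acute and 23.3 and 21.3 CPM in the repeated mice at 0 hr. The groups did not overlap (log2FC 0.89 ± 0.13, adjusted p = 9.36e-05). Of the remaining effectors, Tiparp, an ADP-ribosyltransferase, was at 5.88 to 13.7 CPM at 0 hr and 15.4 to 25.7 at 1 hr (log2FC 1.15 ± 0.23, adjusted p = 0.015). Arl4d, a small GTPase, was at 4.02 to 12.4 CPM at 0 hr and 13.4 to 22.3 at 1 hr (log2FC 1.17 ± 0.24, adjusted p = 0.0228). Btg2, an antiproliferative gene, was at 7.84 to 13.1 CPM at 0 hr and 14.3 to 24.5 at 1 hr (log2FC 0.95 ± 0.20, adjusted p = 0.0228). All mice at 1 hr were above all at 0 hr for these 3 genes, but the gaps between the groups were small.

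The kinase gene Sgk1 (chr10:21882184-21999903, plus strand), a classical target of glucocorticoid hormones that controls ion channels, was at 111 and 147 CPM in the acute and 98.2 and 89.0 CPM in the repeated mice at 1 hr and 60.6 and 65.5 CPM in the acute and 72.7 and 39.9 CPM in the repeated mice at 0 hr. Every mouse at 1 hr was higher than every mouse at 0 hr (log2FC 0.90 ± 0.13, adjusted p = 6.57e-05). Ddit4, an inhibitor of mTOR signaling that glucocorticoids also induce, was at 94.4 and 82.4 CPM in the acute and 92.9 and 103 CPM in the repeated mice at 1 hr and 58.8 and 48.0 CPM in the acute and 63.7 and 63.1 CPM in the repeated mice at 0 hr. Again the groups were separate (log2FC 0.68 ± 0.11, adjusted p = 0.000387). The clock gene Per1 had the smallest change of those called, with 114 and 112 CPM in the acute and 97.6 and 98.8 CPM in the repeated mice at 1 hr and 74.9 and 87.2 CPM in the acute and 78.6 and 75.8 CPM in the repeated mice at 0 hr (log2FC 0.42 ± 0.09, adjusted p = 0.0311). Its 2 acute mice were highest at 1 hr, and the groups did not overlap.

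**Figure D1:**
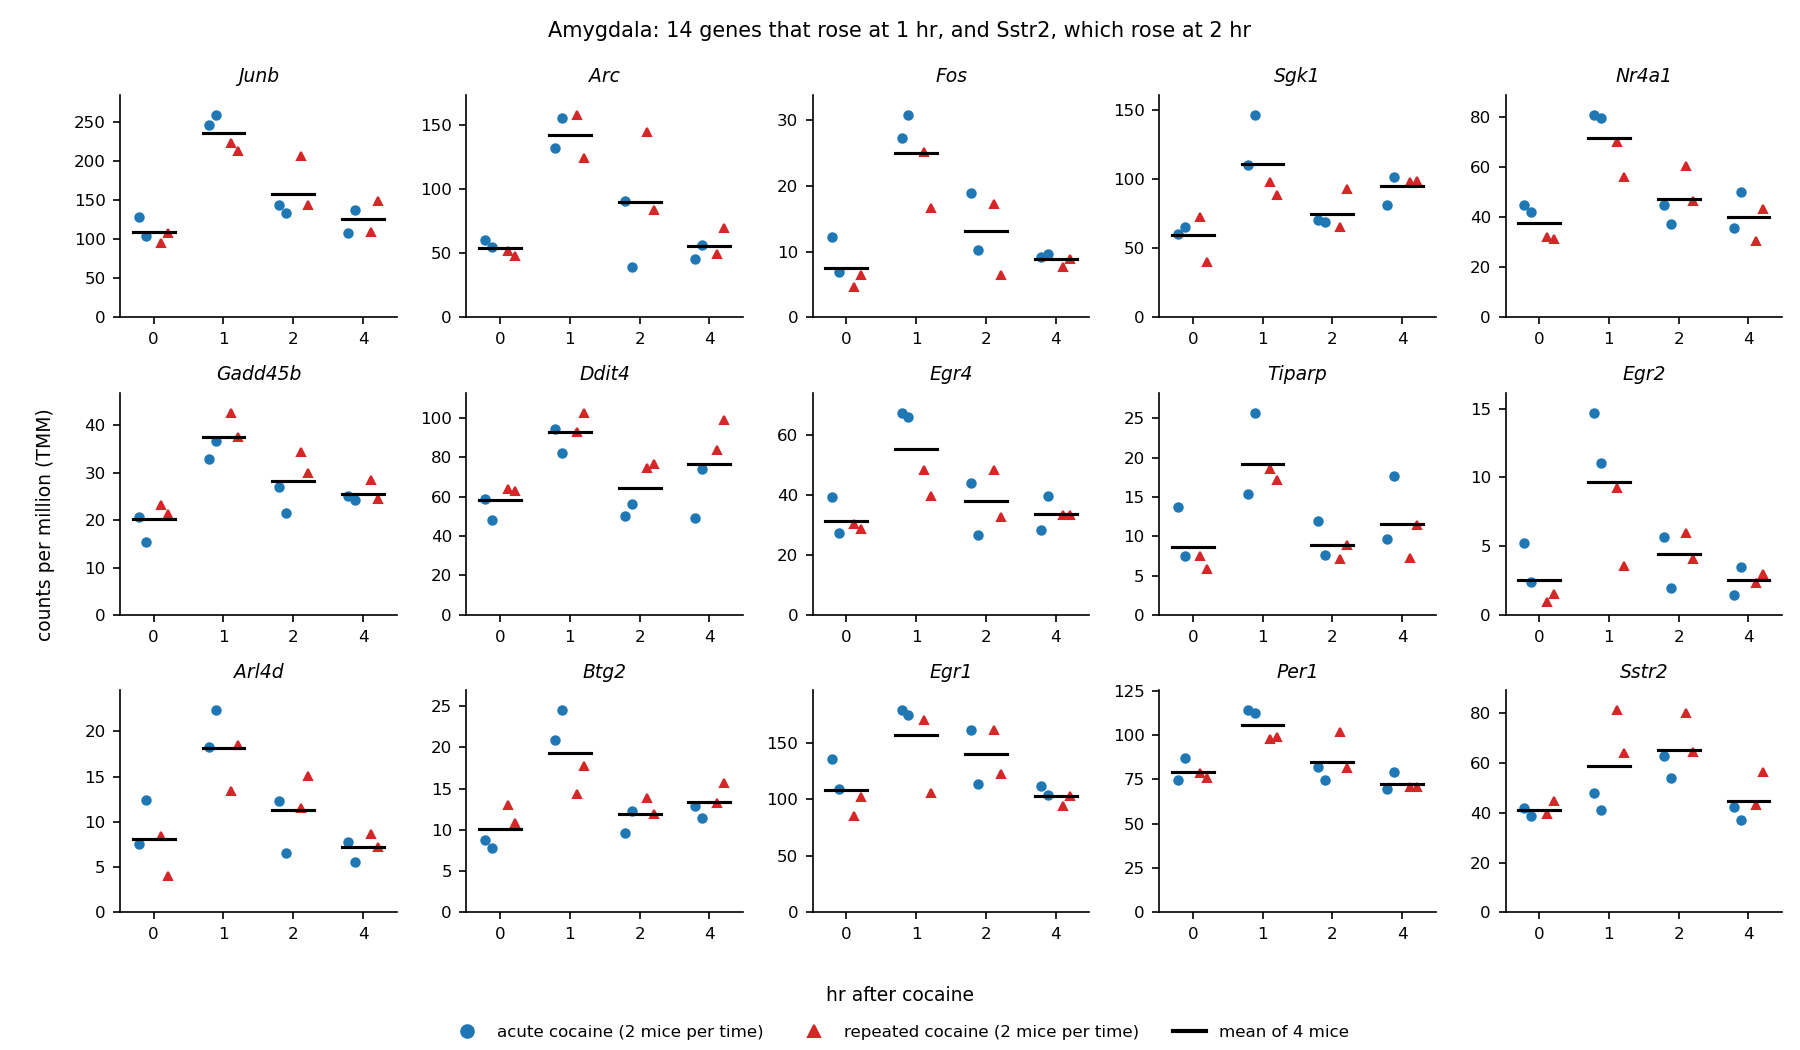
Level of the 14 genes called at 1 hr, and of Sstr2, in each of the 16 mice (CPM, vertical axis from 0) by time after cocaine (hr). Circles are acute mice, triangles repeated mice and black bars the means of 4 mice; the 14 genes have their highest mean at 1 hr and Sstr2 at 2 hr.

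The calls at 1 hr fell into a stable and a fragile set. Junb, Arc, Fos, Sgk1, Nr4a1, Gadd45b and Ddit4 were called without any 1 of the 16 mice, whereas the other 7 genes lost the call without at least 1 mouse. The count fell from 14 to 8 without acute replicate 1 at 1 hr, to 9 without repeated replicate 1 at 0 hr and to 8 without repeated replicate 2 at 0 hr. Counts of the 14 genes ran from 3 (Egr2) to 1078 (Junb) in 1 mouse.

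Promoter sequences of 3 of these genes are shown because the letters known to bind the activating factors can be read in them. They are the 250 bases before the start site in RefSeq for GRCm38.p6, written 5′ to 3′ on the gene's strand, with the motif in capitals. Junb (minus strand) and Fos (plus strand) hold TGACG, the core of the cyclic AMP response element (CRE) that CREB binds, with its first base at -106 in Junb and at -129 and -66 in Fos. Sgk1 (plus strand; the gene has several start sites) holds the glucocorticoid receptor motif, an inverted repeat in capitals, with its first base at -188.
Junb promoter, chr8:84978749-84978998: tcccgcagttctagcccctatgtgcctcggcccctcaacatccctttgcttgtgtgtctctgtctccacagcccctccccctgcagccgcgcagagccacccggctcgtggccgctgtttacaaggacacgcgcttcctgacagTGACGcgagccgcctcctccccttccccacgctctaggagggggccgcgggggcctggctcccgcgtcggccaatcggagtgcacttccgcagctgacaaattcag
Fos promoter, chr12:85473640-85473889: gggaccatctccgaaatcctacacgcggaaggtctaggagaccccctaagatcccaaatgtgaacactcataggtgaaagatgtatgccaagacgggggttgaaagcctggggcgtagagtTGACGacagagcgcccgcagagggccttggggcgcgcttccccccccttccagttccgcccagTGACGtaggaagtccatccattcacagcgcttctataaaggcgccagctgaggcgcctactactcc
Sgk1 promoter, chr10:21993640-21993889: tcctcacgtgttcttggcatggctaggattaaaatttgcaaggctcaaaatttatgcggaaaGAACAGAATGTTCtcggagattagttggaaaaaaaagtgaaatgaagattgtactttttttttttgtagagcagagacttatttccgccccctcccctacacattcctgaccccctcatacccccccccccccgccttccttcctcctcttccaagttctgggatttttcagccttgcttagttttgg

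Windows of this kind were found for 12 of the 14 genes, all but Arc and Egr1, and for 9985 of all genes tested. The TGACG core, searched on both strands, was in a window of 9 of the 12 (75.0%), against 35.5% of all genes. Some genes have several start sites, and by window the shares were 54.5% of 22 against 30.3% of 12914. The full CRE TGACGTCA, which contains the core, was in Arl4d and Btg2 (16.7% against 3.65%). The glucocorticoid receptor motif was in Sgk1 alone of the 12 (8.33% against 0.381%), the CArG box of the serum response factor in Egr2 alone (8.33% against 1.54%), and the EGR site GCGTGGGCG in none (against 1.4%). These are matches of letters and were not tested as sites.

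The calls at 1 hr were counted in the gene lists, beside the 0.110% called over all genes. At that share a list of this size would seldom hold a called gene, so a count of 0 says nothing particular about a list. Of 24 IEG transcription factors, 20 were tested, 6 rose at 1 hr and the median log2FC was 0.57, with 19 positive. Of 31 activity-regulated effectors tested, 5 rose, 20 had positive and 11 negative values (median 0.11), and Bdnf, Homer1 and Nptx2, effectors chosen after their values were seen, had log2FCs of -0.24 ± 0.14, -0.05 ± 0.09 and -0.03 ± 0.13. Of 31 tested genes known to respond to glucocorticoids, 3 rose (Sgk1, Ddit4 and Per1) and 19 had negative values, with a median of -0.05. Of the 21 clock genes, Per1 was the 1 that rose (median 0.08). Of the feedback inhibitors of MAP kinase signaling, which often follow IEGs, 0 of 16 were called (median 0.04). The counts for heat shock chaperones (0 of 20, median -0.05) and for ER chaperones (0 of 19, median -0.07) were likewise 0 beside the same 0.110%. The lists were chosen with earlier results of these data known.

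The genes through which cocaine and the peptides of the Amy signal had medians near 0 at 1 hr, and their counts of 0 are again what the share over all genes would give. Of 30 tested genes of monoamine and cyclic AMP signaling, 0 were called, beside 0.110% over all genes, and the median log2FC was 0.04, with the dopamine receptor genes Drd1 at 0.06 ± 0.15 and Drd2 at 0.17 ± 0.22. Of 27 tested neuropeptide and peptide receptor genes, 0 were called and the median was 0.00, with Sst at -0.02 ± 0.08, Crh at -0.11 ± 0.25 and Penk at 0.06 ± 0.11. These 5 genes stand for the best known members and were chosen after their values were seen. On simulated counts made from these libraries, the test recovered 31 of 50 genes changed 1.5-fold and 47 of 50 changed 2-fold, with 5 false calls. Changes of 1.5-fold or less in these lists could therefore be missed with 4 mice per time point. The changed genes were drawn from those above a minimum mean count, so recovery of genes with fewer counts was not measured.

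At 2 hr after cocaine, Sstr2 (chr11:113619342-113626028, plus strand), a receptor for the inhibitory peptide somatostatin, was the 1 gene that rose (0.00786% of the genes tested, 752 genes with an unadjusted p under 0.05), and none fell. It was at 63.0 and 54.0 CPM in the acute and 80.2 and 64.2 CPM in the repeated mice at 2 hr against 41.9 and 38.9 CPM in the acute and 39.5 and 44.9 CPM in the repeated mice at 0 hr. All mice at 2 hr were above all at 0 hr, with 1 repeated mouse highest (log2FC 0.66 ± 0.12, adjusted p = 0.0268). Levels at 1 hr were 48.1 and 41.3 CPM in the acute and 81.2 and 63.9 CPM in the repeated mice, where the repeated mice were high and the acute mice near the 0 hr range (log2FC 0.48 ± 0.12, adjusted p = 0.191). The call at 2 hr depended on single mice. Without acute replicate 1 at 2 hr, repeated replicate 1 or 2 at 0 hr or repeated replicate 1 at 2 hr, 0 genes were called at 2 hr. Without acute replicate 2 at 2 hr 11 were called, without acute replicate 1 at 0 hr 3, and without acute replicate 2 at 0 hr 2.

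The genes that rose at 1 hr were closer to their 0 hr levels at 2 hr. Their log2FCs at 2 hr were all positive, from 0.06 to 0.84 with a median of 0.35, and Junb alone kept every mouse above the 0 hr range, at 145 and 134 CPM in the acute and 207 and 145 CPM in the repeated mice. At 4 hr 10 of the 14 were positive and 4 negative, from -0.14 to 0.66 with a median of 0.14. These contrasts share the 0 hr mice. At 2 hr the mice of Arc were widely spread, at 90.7 and 39.5 CPM in the acute and 145 and 83.7 CPM in the repeated mice, and at 4 hr they were at 45.3 and 56.5 CPM in the acute and 49.4 and 70.0 CPM in the repeated mice, within or near the 0 hr range. Arc did not pass at 2 hr (log2FC 0.72 ± 0.17, edgeR adjusted p = 0.297). Its log2FC was 0.96 without acute replicate 2 at 2 hr, and it gained the call without a filter on low counts. Sgk1, Ddit4, Btg2 and Tiparp departed from this order, with a higher mean at 4 hr than at 2 hr. The means were 95.1 against 74.7, 76.4 against 64.4, 13.3 against 11.9 and 11.5 against 8.90 CPM. Of these, Sgk1 alone had all of its mice at 4 hr above all at 0 hr (log2FC 0.66 ± 0.13). Its levels at 4 hr were 81.5 and 102 CPM in the acute and 98.1 and 98.8 CPM in the repeated mice. At 2 hr they were 70.8 and 69.1 CPM in the acute and 65.7 and 93.3 CPM in the repeated mice. Sgk1 did not pass the test at 4 hr (adjusted p = 0.159), although this was the smallest adjusted p of that time point, and it was called at 4 hr in a model of 8 groups, with a mean for each experience and time. Gadd45b was also above the 0 hr range in all mice at 4 hr (24.3 to 28.5 against 15.4 to 23.3 CPM; log2FC 0.35 ± 0.14, adjusted p = 0.954). The share of all genes with such a separation was 1.28% at 1 hr and was not counted at 2 or 4 hr.

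At 4 hr, edgeR called 0 genes (0%) and DESeq2 0, with 612 genes at an unadjusted p under 0.05. Leaving out acute replicate 2 at 1 hr, acute replicate 1 at 4 hr or repeated replicate 2 at 2 hr gave 1 call each, and leaving out repeated replicate 1 at 0 hr gave 2. Of the glucocorticoid-responsive genes, 26 of 31 had a positive log2FC at 4 hr (median 0.20, against -0.05 at 1 hr and 0.00 over all genes at 4 hr), and none of them passed the test there.

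A joint test of the 3 time points called 27 genes (0.212% of those tested, 728 with an unadjusted p under 0.05; 29 with DESeq2). At the time of its largest change, 19 were above the 0 hr level (0.149%) and 8 below (0.0629%). The largest change was at 1 hr for 24 genes, at 2 hr for Sstr2 and at 4 hr for 2. All 14 genes of the 1 hr test were among them, and the count was 17 without acute replicate 1 at 1 hr. When each of the 16 mice was left out in turn, 11 of the 27 genes kept their call and direction each time (Arc, Ddit4, Egr1, Fos, Gadd45b, Junb, Klf10, Nab2, Nr4a1, Sgk1 and Sstr2). Of these, Egr1 lost the call with DESeq2 (adjusted p = 0.165). The call was lost without 11 different mice for Btg2 (adjusted p up to 0.438), 8 for Nr4a3 (up to 0.219), 7 for Mgp (up to 0.231) and 6 for Gjb6 (up to 0.241), and without 1 or 2 mice for 9 other genes. For Gjb6, Plin4, Npas4, Ly6a and Ly6c1, leaving out 1 mouse moved the largest change to a time with the opposite direction.

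Among the additional genes above the 0 hr level were Nab2, a corepressor that binds EGR proteins, Nr4a3, a relative of Nr4a1, and Klf10, a zinc finger factor of the immediate-early class. Nab2 was at 67.3 and 72.3 CPM in the acute and 66.3 and 78.6 CPM in the repeated mice at 1 hr and 51.6 and 53.1 CPM in the acute and 57.8 and 54.1 CPM in the repeated mice at 0 hr. By 4 hr it was at 42.5 and 44.1 CPM in the acute and 39.1 and 49.1 CPM in the repeated mice, so that its mice were all above the 0 hr mice at 1 hr and all below them at 4 hr (log2FC 0.40 ± 0.10 and -0.31 ± 0.10, joint test, edgeR adjusted p = 0.000233). Nr4a3 was at 34.4 to 52.0 CPM at 0 hr and 52.1 to 84.5 at 1 hr (log2FC 0.51 ± 0.12, joint test, edgeR adjusted p = 0.0286). Klf10 was at 34.4 and 23.3 CPM in the acute and 33.1 and 28.6 CPM in the repeated mice at 1 hr and 30.5 and 25.6 CPM in the acute and 24.3 and 28.7 CPM in the repeated mice at 2 hr, against 19.8 and 23.5 CPM in the acute and 14.3 and 18.9 CPM in the repeated mice at 0 hr. One acute mouse at 1 hr lay within the 0 hr range, whereas all mice at 2 hr were above it (log2FC 0.64 ± 0.15 and 0.52 ± 0.15, joint test, edgeR adjusted p = 0.00298). Gm13889, a predicted protein-coding gene, was at 93.4 to 113 CPM at 1 hr and 87.9 to 110.4 at 2 hr, above 75.8 to 80.5 at 0 hr in every mouse (log2FC 0.37 ± 0.09 at 1 hr, joint test, edgeR adjusted p = 0.00562).

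Npas4, an IEG factor that shapes inhibitory synapses, crossed from above to below its 0 hr level. It was at 14.3 and 11.2 CPM in the acute and 14.3 and 13.6 CPM in the repeated mice at 0 hr, 15.7 and 19.7 CPM in the acute and 22.1 and 25.3 CPM in the repeated mice at 1 hr and 11.0 and 5.55 CPM in the acute and 7.95 and 5.56 CPM in the repeated mice at 4 hr. All mice at 1 hr were above the 0 hr mice and all at 4 hr below them, while mice at 2 hr were spread on both sides (4.10 to 16.3 CPM). Its log2FCs were 0.62 ± 0.23 and -0.76 ± 0.26, and neither passed alone (joint test, edgeR adjusted p = 0.00397). Rps6ka4, a kinase that phosphorylates CREB and histone H3 downstream of MAP kinases, was lowest at 4 hr, at 28.6 and 32.3 CPM in the acute and 26.2 and 29.8 CPM in the repeated mice against 39.6 and 40.1 CPM in the acute and 43.5 and 51.3 CPM in the repeated mice at 0 hr. All mice at 4 hr were below those at 0 hr (log2FC -0.57 ± 0.12, joint test, edgeR adjusted p = 0.00397).

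The other 6 genes were lowest at 1 hr. Plin4, a lipid droplet protein induced by glucocorticoids, was at 0.949 and 2.16 CPM in the acute and 2.09 and 3.54 CPM in the repeated mice at 1 hr, 3.50 and 5.13 CPM in the acute and 9.63 and 4.02 CPM in the repeated mice at 0 hr and 7.97 and 5.90 CPM in the acute and 12.6 and 19.0 CPM in the repeated mice at 4 hr. It was low in 3 of 4 mice at 1 hr and above the 0 hr range in both repeated mice at 4 hr (log2FC -1.34 ± 0.37 and 0.99 ± 0.30, joint test, edgeR adjusted p = 0.000785). Pnpla7, a lysophospholipase, was below the 0 hr range in all mice at 1 hr (9.96 to 14.3 against 14.8 to 23.6 CPM; log2FC -0.66 ± 0.18, joint test, edgeR adjusted p = 0.00397). Gjb6, an astrocyte connexin also on the glucocorticoid list, was at 60.0 to 80.2 CPM at 1 hr and 74.9 to 107 at 0 hr (log2FC -0.37 ± 0.10, joint test, edgeR adjusted p = 0.0244). Of the 31 tested genes of the glucocorticoid list, 5 were thus called jointly, beside 0.212% of all genes, Sgk1, Ddit4 and Per1 with their largest change upward and Plin4 and Gjb6 downward.

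Vessel genes made up the rest. Ly6c1, a surface antigen of brain endothelial cells, was at 66.6 and 62.4 CPM in the acute and 108 and 90.1 CPM in the repeated mice at 1 hr, against 83.3 and 70.6 CPM in the acute and 132 and 144 CPM in the repeated mice at 0 hr. Its relative Ly6a was at 30.6 and 34.8 CPM in the acute and 52.3 and 45.2 CPM in the repeated mice at 1 hr, against 39.6 and 32.0 CPM in the acute and 81.1 and 74.2 CPM in the repeated mice at 0 hr. Both were lower in the acute than in the repeated mice at 0 hr, and within each experience the 1 hr mice of Ly6c1 were below the 0 hr mice. The changes at 1 hr were -0.39 ± 0.11 for Ly6c1 (joint test, edgeR adjusted p = 0.00202) and -0.45 ± 0.13 for Ly6a (adjusted p = 0.00332). They belong to a family of related genes, and how reads were divided among its members was not tested. Mgp, a matrix protein of vessels and meninges, was at 25.9 to 41.6 CPM at 1 hr and 33.2 to 60.0 at 0 hr (log2FC -0.44 ± 0.12, joint test, edgeR adjusted p = 0.0396). Of 12 endothelial markers, 11 had a negative log2FC at 1 hr, against 6360 of all 12720 genes, with a median of -0.31, and 2 were called jointly, beside 0.212% of all genes. Their summed level in repeated mice was 496 to 561 CPM at 0 hr and 403 to 409.9 at 1 hr, whereas in acute mice it was 332 to 381 at 0 hr, 328 to 346 at 1 hr and 445 to 469 at 2 hr. Of the 9 markers of mural cells, the other vessel cell list, 5 were positive and 4 negative at 1 hr (median 0.05). Their sum overlapped that at 0 hr, at 178 to 184 against 163 to 191 CPM in acute and 204 to 224 against 209 to 229 CPM in repeated mice. In bulk tissue, fewer vessel cells in a sample and less RNA per cell cannot be told apart, and their part in the result was not tested. The genes Gm13889, Mgp, Nab2, Pnpla7 and Rps6ka4 were named after their values were seen.

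**Figure D2:**
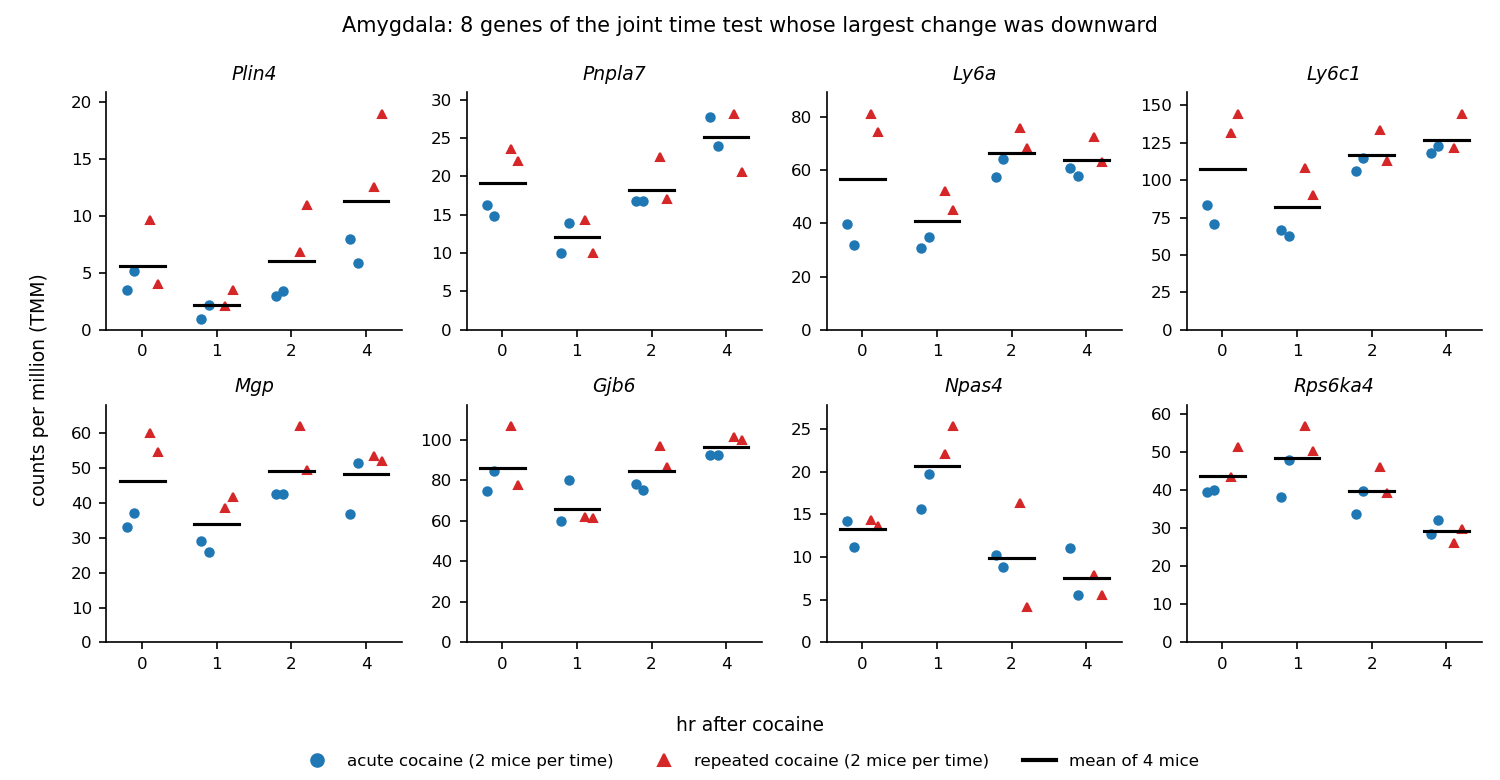
Level in each of the 16 mice (CPM, vertical axis from 0) by time after cocaine (hr) for the 8 genes whose largest change in the joint test was downward; circles are acute mice, triangles repeated mice and black bars the means of 4 mice. Rps6ka4 and Npas4 are lowest at 4 hr and the other 6 genes at 1 hr, and Ly6a and Ly6c1 are lower in acute than in repeated mice at 0 hr.

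Whether the response differed between acute and repeated cocaine was tested as the difference of the changes from 0 hr, with 2 mice per group. edgeR called 0 of 12720 genes at 1, 2 or 4 hr or jointly (0%), and DESeq2 called 0 in each, while 522, 635, 604 and 633 genes had an unadjusted p under 0.05. Leaving out single mice gave calls in a few cases. Without acute replicate 1 at 4 hr, 1 gene (Mbp) was called at 4 hr and 6 jointly, and without repeated replicate 2 at 0 hr, 1 (Hist1h1c) was called at 1 hr. Without acute replicate 2 at 0 hr, 1 (Ttr) was called at 2 hr, at 4 hr and jointly, and without acute replicate 1 at 2 hr, 1 (Arc) was called at 2 hr and jointly. Mbp, Hist1h1c and Ttr were named after their values were seen. All 14 genes of the 1 hr response had positive log2FCs in both experiences, which is a description because the mice of both experiences chose the genes. At 1 hr 7 were larger and 7 smaller after repeated than after acute cocaine. Junb had a log2FC of 1.12 after acute and 1.10 after repeated cocaine, a difference of -0.02, 95% interval -0.41 to 0.36. For Arc the changes were 1.31 and 1.49, a difference of 0.18, 95% interval -0.44 to 0.80, and for Fos 1.59 and 1.89, a difference of 0.30, 95% interval -0.70 to 1.30. Egr2 had the widest interval of these genes, with a difference of 0.58, 95% interval -1.09 to 2.26. A missed threshold therefore does not show that the experiences act alike. On simulated counts this test recovered 28 of 50 genes whose responses differed 2-fold and 44 of 50 that differed 4-fold, with 6 false calls, again among genes above a minimum mean count.

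At 1 hr, Btg2 was the 1 gene of the 14 with 0 outside the interval, beside 4.1% of all genes with an unadjusted p under 0.05. It was at 8.74 and 7.84 CPM at 0 hr and 20.9 and 24.5 at 1 hr after acute cocaine, and at 13.1 and 10.8 and then 14.3 and 17.7 CPM after repeated cocaine. The acute mice thus went from below to above the repeated mice, with a difference of -1.02, 95% interval -1.78 to -0.26 that did not pass (adjusted p = 0.9995). Sstr2 went the other way at 1 hr, with log2FCs of 0.15 after acute and 0.78 after repeated cocaine (difference 0.63, 95% interval 0.17 to 1.10, adjusted p = 0.9995).

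At 2 hr the change was larger after repeated cocaine for 13 of the 14 genes, beside 50.7% of all genes tested. For 5 of the 14 the interval did not include 0, beside 4.99% of all genes with an unadjusted p under 0.05, while none passed the test (smallest adjusted p of these 5 = 0.851). The difference at 2 hr was 0.97, 95% interval 0.33 to 1.61, for Arc and 0.83, 95% interval 0.33 to 1.34, for Nr4a1. For Junb it was 0.53, 95% interval 0.13 to 0.92, for Arl4d 1.11, 95% interval 0.10 to 2.11, and for Egr2 1.91, 95% interval 0.14 to 3.67. The mice of Arc at 2 hr nevertheless overlapped between the experiences, as given above. At 4 hr 12 of the 14 were larger after repeated cocaine, beside 49.7% of all genes, and every interval included 0. The contrasts share the 0 hr mice of each experience, and the 14 genes were measured in the same mice, so they are not separate observations. At 2 hr acute replicate 2 was below replicate 1 for Arc (39.5 against 90.7 CPM), Nr4a1 (37.5 against 44.8) and Junb (134 against 145). The same held for Arl4d (6.54 against 12.3) and Egr2 (1.99 against 5.64), while Btg2 and Ddit4 went the other way. The part of this mouse was not tested. The median difference at 2 hr over the 20 IEG factors was 0.23, against 0.00 over all genes.

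**Figure D3:**
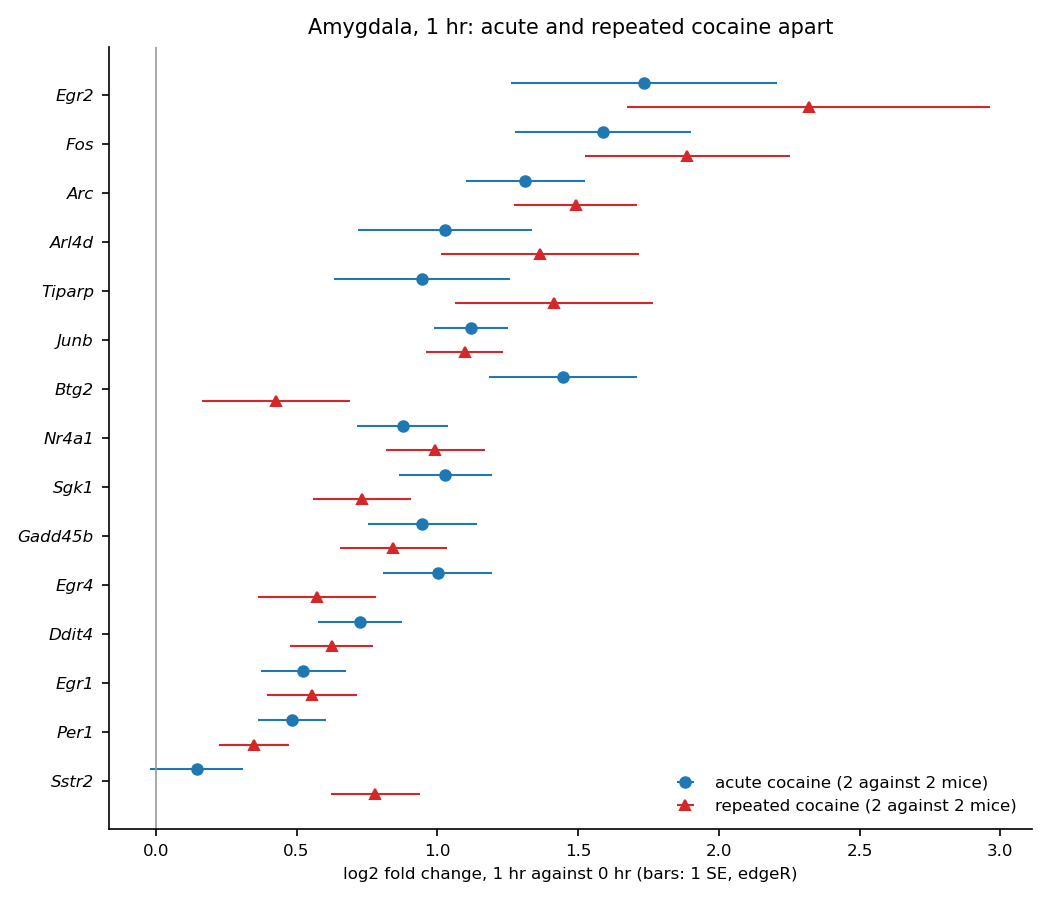
Log2 fold change at 1 hr against 0 hr (horizontal axis) after acute cocaine (circles) and after repeated cocaine (triangles) for the 14 genes called at 1 hr and for Sstr2; each point compares 2 with 2 mice and bars are 1 SE. The bars of the experiences overlap or nearly meet for most genes and stand apart for Btg2, which is higher after acute cocaine, and for Sstr2, which is higher after repeated cocaine.

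Genes outside the IEG class were among those with the smallest p-values, given as not called. Rara, the retinoic acid receptor alpha, was at 7.15 and 3.71 CPM at 0 hr, 17.9 and 20.4 at 1 hr and 23.7 and 27.0 at 2 hr in repeated mice. In acute mice it was at 14.3 and 11.2 CPM at 0 hr, 9.72 and 12.5 at 1 hr and 17.2 and 15.9 at 2 hr. The repeated mice thus stood below the acute mice at 0 hr and above them at 1 and 2 hr, and the difference at 1 hr was 2.01, 95% interval 1.17 to 2.85 with an adjusted p of 0.138. Without a filter on low counts, this difference passed (adjusted p = 0.0146). The DNA replication factor subunit Rfc3 had a difference of 1.89, 95% interval 0.93 to 2.86 at 1 hr, and Gsn, the actin-severing protein gelsolin, of 0.90, 95% interval 0.44 to 1.36 at 2 hr.

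Ly6a and Ly6c1 also had small p-values here, at 4 hr. Ly6a was at 39.6 and 32.0 CPM at 0 hr and 60.9 and 57.9 at 4 hr in acute mice, and at 81.1 and 74.2 and then 72.5 and 63.1 CPM in repeated mice. Acute mice went up and repeated mice slightly down, toward closer levels (difference -0.93, 95% interval -1.34 to -0.51, adjusted p = 0.695). For Ly6c1 the difference was -0.70, 95% interval -1.04 to -0.35. The endothelial list as a whole had a median difference of -0.62 at 4 hr, against 0.00 over all genes, and its summed level in acute mice was 332 to 381 CPM at 0 hr and 462 to 467 at 4 hr. The part of the vessel markers in these differences was not tested.

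**Figure D4:**
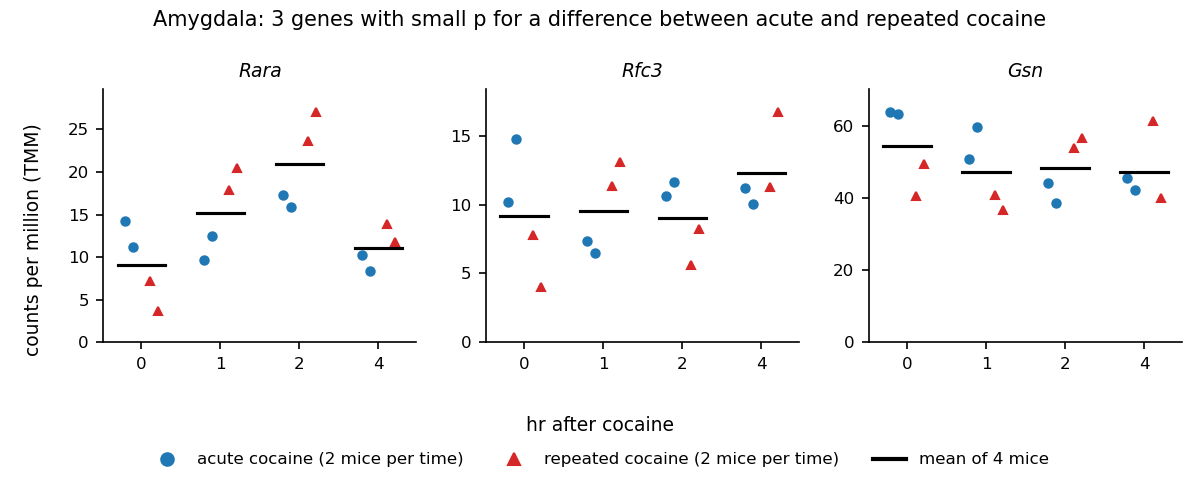
Level in each of the 16 mice (CPM, vertical axis from 0) by time after cocaine (hr) for Rara, Rfc3 and Gsn, none of which passed the adjusted threshold; circles are acute mice, triangles repeated mice and black bars the means of 4 mice. In each of these genes the acute and repeated mice at 0 hr do not overlap.

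The response was set beside that of the LH, dissected in the same cohorts and sequenced in the same run. The joint test of a difference between the structures called 0 of 13103 genes (0%; 514 with an unadjusted p under 0.05; DESeq2 0), and at 1 hr alone it called 1 (0.00763%), Arc. In the LH, Arc was at 45.4 and 29.0 CPM in the acute and 30.5 and 38.7 CPM in the repeated mice at 0 hr and 39.3 and 35.5 CPM in the acute and 41.7 and 36.6 CPM in the repeated mice at 1 hr. These groups overlapped, unlike those of the Amy (LH log2FC 0.07 ± 0.19; Amy minus LH 1.33 ± 0.25, adjusted p = 0.0185, joint adjusted p = 0.12). With the mouse number as a block shared by the structures, the joint test called 1 gene, Arc. Of the 14 genes, 13 had a positive log2FC at 1 hr in the LH. Fos was at 9.13 and 7.78 CPM in the acute and 6.09 and 4.26 CPM in the repeated mice at 0 hr and 35.8 and 27.5 CPM in the acute and 26.7 and 22.8 CPM in the repeated mice at 1 hr in the LH (log2FC 2.02 ± 0.23), and every mouse at 1 hr was above all at 0 hr. Egr2 was the gene without a positive value there (-0.05 ± 0.65; difference 1.96 ± 0.79, not called).

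Challenge cocaine, a dose given after 21 days of abstinence from repeated cocaine, was available in 16 further Amy libraries of 15 mice. A mouse sequenced in both of their runs was counted once, so 15 libraries were used. These runs hold no acute or repeated Amy library, so that run and experience cannot be told apart. The joint test of a difference from the response to acute and repeated cocaine called 0 of 12890 genes (0%; 466 with an unadjusted p under 0.05; DESeq2 0). All 14 genes had positive log2FCs at 1 hr after challenge. Arc was at 68.4, 78.6 and 54.4 CPM in 3 challenge mice at 0 hr and at 149, 111, 143 and 137 in 4 at 1 hr, again without overlap (log2FC 1.06 ± 0.20). Junb was at 131, 111 and 116 CPM at 0 hr and 259, 207, 248 and 260.0 at 1 hr (log2FC 1.05 ± 0.12). Npas4 reached a log2FC of 1.47 ± 0.27 after challenge (adjusted p = 0.00298), against 0.62 ± 0.23 after acute and repeated cocaine, and the difference did not pass the test (adjusted p = 0.9996).

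**Figure D5:**
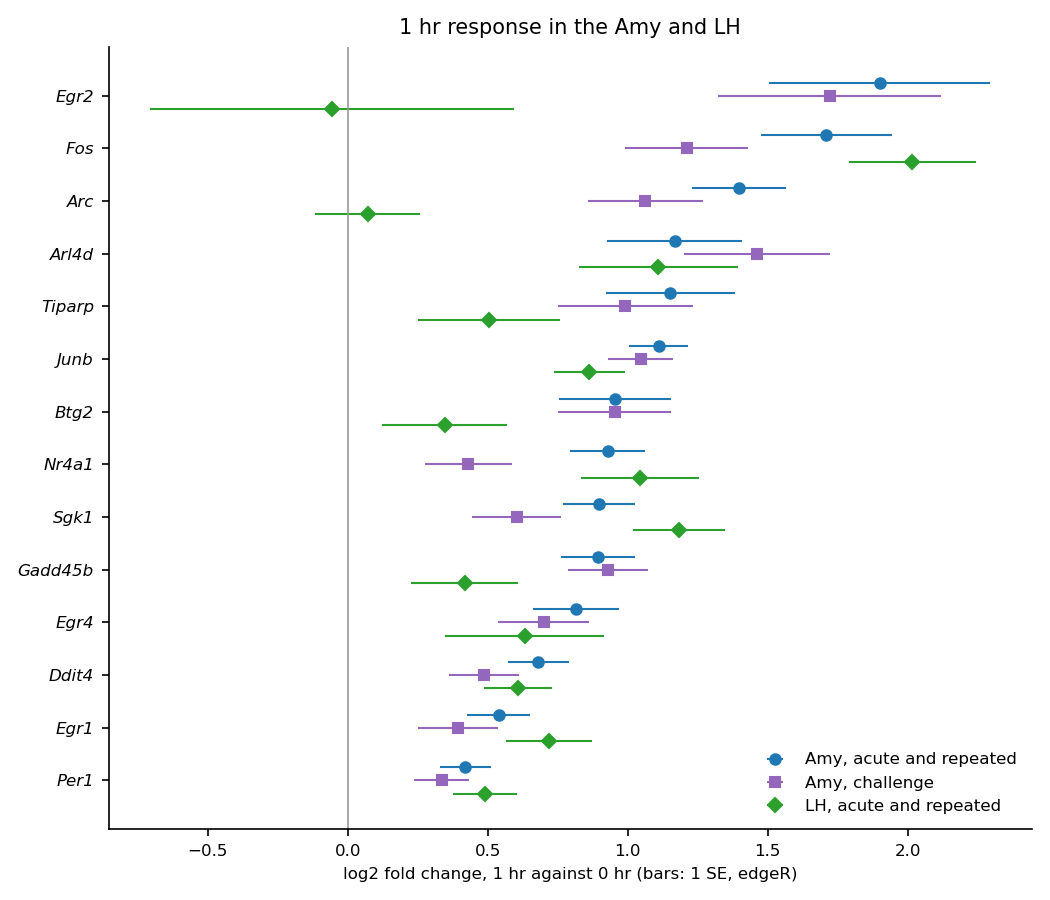
Log2 fold change at 1 hr against 0 hr for each of the 14 genes in the Amy after acute and repeated cocaine, in the LH after acute and repeated cocaine and in the Amy after challenge cocaine; circles, diamonds and squares mark these sets in that order and bars are 1 SE. Arc is near 0 in the LH and above 1 in both sets of Amy libraries, and Junb and Fos are above 0 in all 3.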

How the data were processed

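3′-RNA-seq counts of the series were used. The deposited values are whole-number counts per gene, which the authors made by removing PCR duplicates with unique molecular identifiers, aligning to GRCm38 with STAR and counting with HTSeq (per the submitters' processing notes and the study's methods); they are not normalized for library size. All columns were mapped to a sample by their names (0 left out). Counts from 3′ ends give no comparison of levels between genes. Groups, replicate numbers and times came from the labels, and cohort and run from the sample names.

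The main tests were quasi-likelihood F tests of edgeR 4.0.16 under R 4.3.3, after filterByExpr and TMM, with Benjamini-Hochberg adjustment over all genes tested; DESeq2 1.42.0 was an alternative. Time responses used experience plus time; differences between experiences, structures and challenge were interaction contrasts, and intervals are for the fitted difference. The time contrasts share the 0 hr mice. The tests were tried on simulated counts, with changed genes drawn from those above a minimum mean count. Motifs and plots used Python 3.11.15, numpy 2.4.6, pandas 2.3.3 and matplotlib 3.10.9, with positions from GENCODE M21 and promoters from RefSeq (GRCm38.p6); the annotation the authors counted on is not given in the sources used here.

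Named genes were up to 10 called genes in each direction per time contrast with the smallest p, the 3 largest changes, the 3 smallest p of each interaction test, called members of the pathway lists, and Fos, Arc, Egr2, Nr4a1 and Fosb; 1 gene that this rule names is not reported here. The libraries, lists and rules were chosen with earlier results of these data known. Mice of a group are separate animals. Alternatives were RLE scaling, DESeq2, other filters, no minimum fold change, the replicate number as a block, an 8-group model and leaving out each mouse.

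Replicate numbers did not pair the mice: over 28 pairs of groups, the correlation of same-numbered deviations ran from -0.0705 to 0.0875, with 0 pairs over 0.1.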

Additional observations from a re-analysis of the deposited data

Results flagged for a closer look

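In 6 of the 128 groups of 4 mice tested (4.69%), 1 mouse lay far from the other 3, and chance gives about 1 such group in 20. At 1 hr, Egr1 was at 106 CPM in repeated replicate 2, below 170.2 to 179 in the others, and Gjb6 was at 80.2 CPM in acute replicate 2, above 60.0 to 62.1. At 4 hr, Mgp was at 36.8 CPM in acute replicate 1, below 51.3 to 53.3, and Per1 at 79.1 CPM in acute replicate 2, above 69.4 to 70.9. Nr4a3 was at 34.4 CPM in acute replicate 2 at 0 hr, below 49.4 to 52.0, and Pnpla7 at 22.5 CPM in repeated replicate 1 at 2 hr, above 16.7 to 17.1.

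The response of Arc at 1 hr differed between the structures by 1.33 on the log2 scale (Amy minus LH, edgeR interaction test, adjusted p = 0.0185), with the 4 Amy mice at 1 hr above and the 4 LH mice within the range of their 0 hr mice.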

How the results depend on the processing

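Scaling by RLE, no minimum fold change and a mean of at least 10 counts left every count of calls within 1.5 times the value given, as did DESeq2. Of 450 values of 66 named results under alternatives other than leaving out a mouse, 437 kept their direction and side of the threshold, 4 lost the call, 7 gained it and 2 reversed. Without 1 mouse, 957 of 1056 were kept, 84 lost the call, 1 gained it and 14 reversed.

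Without a filter on low counts, calls rose to 27 at 1 hr, 17 at 2 hr, 8 at 4 hr and 73 jointly. Differences between acute and repeated cocaine then numbered 4, 7, 2 and 27 jointly, those between Amy and LH 22 and those of challenge 10. The 8-group model called 4 genes at 2 hr and 1 at 4 hr (Sgk1), against 1 and 0. The cause was not tested.

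Leaving out 1 mouse gave 8 to 14 calls at 1 hr, 0 to 11 at 2 hr, 0 to 2 at 4 hr and 17 to 39 jointly. For acute against repeated cocaine it gave 0 to 1 call at 1, 2 and 4 hr each and 0 to 6 jointly, for Amy against LH 0 to 1, and for challenge 0. In the LH comparison the 1 call was Arc without acute replicate 2 at 2 hr, repeated replicate 2 at 1 hr or repeated replicate 1 at 2 hr of the Amy, and Acta2 without repeated replicate 2 at 2 hr of the LH.

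Reversals were at 4 hr, where these genes were not called, or in the time of the largest change. Arc at 4 hr was at -0.03 without acute replicate 2 at 4 hr, -0.04 and -0.07 without repeated replicates 1 and 2 at 0 hr, and -0.084 without repeated replicate 2 at 4 hr, within a range of -0.084 to 0.12 without 1 mouse. Egr2 at 4 hr was at 0.00796 with DESeq2, 0.15 in the 8-group model, and 0.50 and 0.33 without acute replicate 1 at 0 and at 4 hr (range -0.27 to 0.50). Fosb at 4 hr was at -0.031 without repeated replicate 1 at 0 hr (range -0.031 to 0.40), and Nr4a1 at -0.031 and -0.0031 without acute and repeated replicate 2 at 4 hr (range -0.031 to 0.16). In the joint test the largest change became 0.28 for Gjb6 (range -0.52 to 0.28), 1.18 for Plin4 (-1.64 to 1.18) and 0.41 for Ly6a (-0.60 to 0.41) without repeated replicate 1 at 0 hr, 0.38 for Ly6c1 (-0.49 to 0.38) without repeated replicate 2 at 0 hr, and 0.62 for Npas4 (-1.11 to 0.62) without repeated replicate 2 at 4 hr.

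With the replicate number as a block, although the numbers did not pair the mice, 15 genes were called at 1 hr, 1 at 2 hr, 0 at 4 hr and 28 jointly, and 0 differed between acute and repeated cocaine. Btg2 lost the joint call in this paired fit (adjusted p = 0.0592) and with a mean of at least 10 counts (0.0509). With the mouse as a block, 1 gene differed between Amy and LH jointly.

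With 2 mice per experience and time, differences between the experiences of 1.5-fold were mostly not detectable (10 of 50 recovered on simulated counts). Egr2 and Plin4 rest on few counts. All time responses compare injected mice with home cage mice.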

Other observations

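The summed oligodendrocyte markers varied between mice of a group as well as between times. The 10 oligodendrocyte markers summed to 7799 to 8688 CPM at 0 hr and 6113 to 7137 CPM at 2 hr in acute mice, and to 6171 to 6991 and 6915 to 8463 CPM in repeated mice. Both acute mice at 2 hr were thus below both at 0 hr while the repeated mice overlapped, with a median difference over the list of 0.43, against 0.00 over all genes, and none of its genes passed the test. At 4 hr the 2 acute mice spanned 5622 to 9303 CPM, which holds both their 0 hr and 2 hr ranges. The repeated mice were then at 6710 to 8503 CPM. How many genes separate 2 against 2 mice in this way was not counted. Mbp and Mobp, which encode myelin proteins, were among the 6 genes called for a joint difference without acute replicate 1 at 4 hr. Both were named after their values were seen.

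The 9 ependymal markers, genes of the ciliated cells that line the ventricles, summed to 60.9 to 92.6 CPM at 0 hr and 113 to 114 CPM at 1 hr in acute mice, and to 51.3 to 115 and 38.2 to 65.3 CPM in repeated mice. Their median difference at 1 hr was -1.88, and none passed the test. The part of either cell type in the other results was not tested.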
